A study of Mus musculus with 2 samples.

Results

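Limb mesenchyme cells were assigned to forelimb or hindlimb by the genes that mark the 2 limbs, Tbx5, Tbx4 and Pitx1, and the sides were compared gene by gene within each of 2 single-cell libraries. Both libraries hold dissected limb skeletal muscle tissue of wild-type (WT) C57Bl/6 mouse embryos, 1 library of embryonic day E12.5 and 1 of E15.5, and in each of them forelimbs and hindlimbs were pooled. The limb of a cell is therefore known only from its own RNA. A mesenchyme cell was a barcode with at least 500 detected genes, under 10% mitochondrial UMIs, at least 1 UMI of the collagen genes Col1a1 or Col3a1, and none of Myog (muscle), Cdh5 (endothelium) and Ptprc (blood cells). A UMI, or unique molecular identifier, stands for 1 captured RNA molecule. Forelimb cells had at least 1 UMI of Tbx5 and none of Tbx4 and Pitx1, and hindlimb cells had at least 1 UMI of Tbx4 or Pitx1 and none of Tbx5. The cells were thus chosen by the measured UMIs of these genes, and the rule found 6450 cells among 18721 barcodes, 1190 forelimb and 3561 hindlimb cells at E12.5 and 254 forelimb and 1445 hindlimb cells at E15.5. The number and sex of the embryos are not given in the labels, and with 1 library per age there are no replicates, so that no test was made and every interval below is a 95% interval that covers counting error only.

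Tbx5 and Tbx4 are related T-box transcription factors that start and sustain outgrowth of the forelimb and the hindlimb, and Pitx1 is a homeodomain factor that acts upstream of Tbx4 and gives the hindlimb its shape. Along the body axis the 2 limbs arise at different levels of the Hox code, the graded use of 4 clusters of homeodomain genes, with the hindlimb in the domain of the more posterior HoxC genes. Within each limb, the posterior HoxA and HoxD genes are used again to pattern upper arm or thigh, forearm or shank, and hand or foot. In the mouse the hindlimb bud appears later than the forelimb bud. The mesenchyme of the limb gives rise to cartilage, tendon and the connective tissue around muscle, which keeps the positional genes of its limb.

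The 3 side genes chose the cells, and their values are a description. Tbx5 UMIs in forelimb cells numbered 1735 in the E12.5 library, and 350 in that of E15.5. Hindlimb cells held 5967 Pitx1 and 1329 Tbx4 UMIs at E12.5, and 3217 and 454 at E15.5. Most hindlimb cells were called by Pitx1 alone, 2476 at E12.5 and 1069 at E15.5, while 387 and 98 had Tbx4 alone and 698 and 278 had both. Many calls rest on a single UMI, in 68.5% of forelimb and 47.3% of hindlimb cells at E12.5, and in 71.3% and 37.3% at E15.5. Just outside the rule lay, in the order of age, 519 and 69 cells with genes of both sides, and 4528 and 1578 mesenchyme cells with none of the 3 genes.

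Free RNA in droplets can give such UMIs to cells that do not make them, and the source of the UMIs below was not tested. The Cdh5, Myog and Ptprc barcodes were each chosen by a UMI of that gene, with no collagen limit and no removal of doublets. Barcodes with at least 2000 UMIs were thinned to 2000, and the rest were left out. At E12.5 this left out 3058 of 9798 mesenchyme cells and 44 of 256 Cdh5 barcodes, and at E15.5 194 of 3346 and 7 of 195. After thinning, Pitx1 was seen in 32.7% (31.5 to 33.8) of mesenchyme cells and 13.7% (9.36 to 19.1) of Cdh5 barcodes at E12.5, and in 18.1% (16.8 to 19.5) and 4.26% (1.85 to 8.21) at E15.5. Unthinned, the 4 shares were 37.0%, 18.4%, 42.1% and 13.3%, at median depths of 2476, 3388, 9212 and 12285 UMIs. Tbx4 was seen in 9.81% against 4.72% (2.28 to 8.50) after thinning at E12.5, and in 3.27% against 0 of 188 Cdh5 barcodes (exact upper bound 1.94%) at E15.5. Tbx5 was seen in 13.2% of mesenchyme cells against 3.30% (1.34 to 6.68) at E12.5. At E15.5 its thinned share of 2.70% (2.16 to 3.32) was not separable from the 1.06% (0.129 to 3.79) in Cdh5 barcodes or the 1.77% (0.652 to 3.81) in barcodes with the muscle gene Myog. Unthinned, Tbx5 was there in 9.65% (8.67 to 10.7) of mesenchyme cells, 3.59% (1.46 to 7.26) of Cdh5 barcodes and 7.40% (4.93 to 10.6) of Myog barcodes, so that the Cdh5 interval lay below that of mesenchyme and the Myog interval overlapped it. Pitx1 in Myog barcodes reached, in the order of age, 11.9% (8.78 to 15.6) and 10.0% (7.05 to 13.7) after thinning. Unthinned, it reached 20.5% and 25.2%. In the 55 and 134 thinned Ptprc barcodes, Pitx1 was in 10.9% (4.11 to 22.2) and 1.49% (0.18 to 5.29). Tbx5 was in 5.45% (1.14 to 15.1) and 0.75% (0.02 to 4.09) of these. Unthinned at E15.5, Tbx5 was in 1.46% (0.18 to 5.17) of Ptprc barcodes, an interval below that of mesenchyme.

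The mesenchyme genes Prrx1, Pdgfra and Twist1 were present on both sides. In CPM, the UMIs of a gene scaled to all UMIs of a side, Prrx1 stood at 698 in forelimb and 1055 in hindlimb cells at E12.5, and at 277 and 297 at E15.5. The summed level of 12 muscle markers was 116 and 126 CPM at E12.5 and 85.7 and 76.5 CPM at E15.5. That of 9 immune markers was at or under 10.7 CPM in each group. The median cell had 2422.5 UMIs in the forelimb and 2781 in the hindlimb at E12.5, and 11835 and 8763 at E15.5, so that depth differed between the sides in opposite directions at the 2 ages. The libraries shared 17 barcode sequences.

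The share of male cells also differed between the sides. Among cells with a sex call, made from Xist or 4 Y-linked genes, 31.2% (28.1 to 34.5) of forelimb and 13.1% (11.9 to 14.5) of hindlimb cells were male at E12.5. At E15.5 the order was the other way, with 10.5% (6.91 to 15.1) of forelimb and 23.6% (21.3 to 26.0) of hindlimb cells male. Ddx3y, at log2 ratios of 1.20 and -1.10, is among the 4 Y-linked genes behind the sex call. Its ratios are therefore not separate from these shares. In the summed counts a difference between the sexes or between embryos and a difference between the limbs cannot be told apart. Values within female and male cells are given below for the genes the results turn on.

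Few genes differed by 2-fold or more between the sides at E12.5. Of 10075 genes with at least 100 UMIs over both sides, 59 (0.586%) were at least 2-fold higher in the forelimb and 35 (0.347%) in the hindlimb. At E15.5, 99 of 10161 genes (0.974%) were higher in the forelimb and 266 (2.62%) in the hindlimb. In either direction these make 0.933% and 3.59% of the genes measured. Of the 9432 genes measured at both ages, 12 (0.127%) were at least 2-fold higher in the hindlimb at both and 7 (0.0742%) in the forelimb at both, while 4 (0.0424%) were past 2-fold in opposite directions. The overlap between the ages depended on the age it was counted from. Of 20 hindlimb genes of E12.5 that were also measured at E15.5, 16 kept their sign and 12 stayed past 2-fold, with a median log2 ratio of -1.77 there. Of 49 forelimb genes, 28 kept their sign and 7 stayed past 2-fold, with a median of 0.15. Counted from E15.5 the order of the sides was the other way. Of 207 hindlimb genes, 97 (46.9%) kept their sign at E12.5 and 12 (5.80%) stayed past 2-fold, and of 35 forelimb genes 21 kept their sign and 7 stayed. Of all genes measured at both ages, between 49.5% and 50.5% had the sign in question, and the difference between the sides was not tested. Across the 9432 genes, which are not independent and share the 2 libraries, Pearson's r of the ratios was 0.13 and Spearman's rho 0.085.

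**Figure D1:**
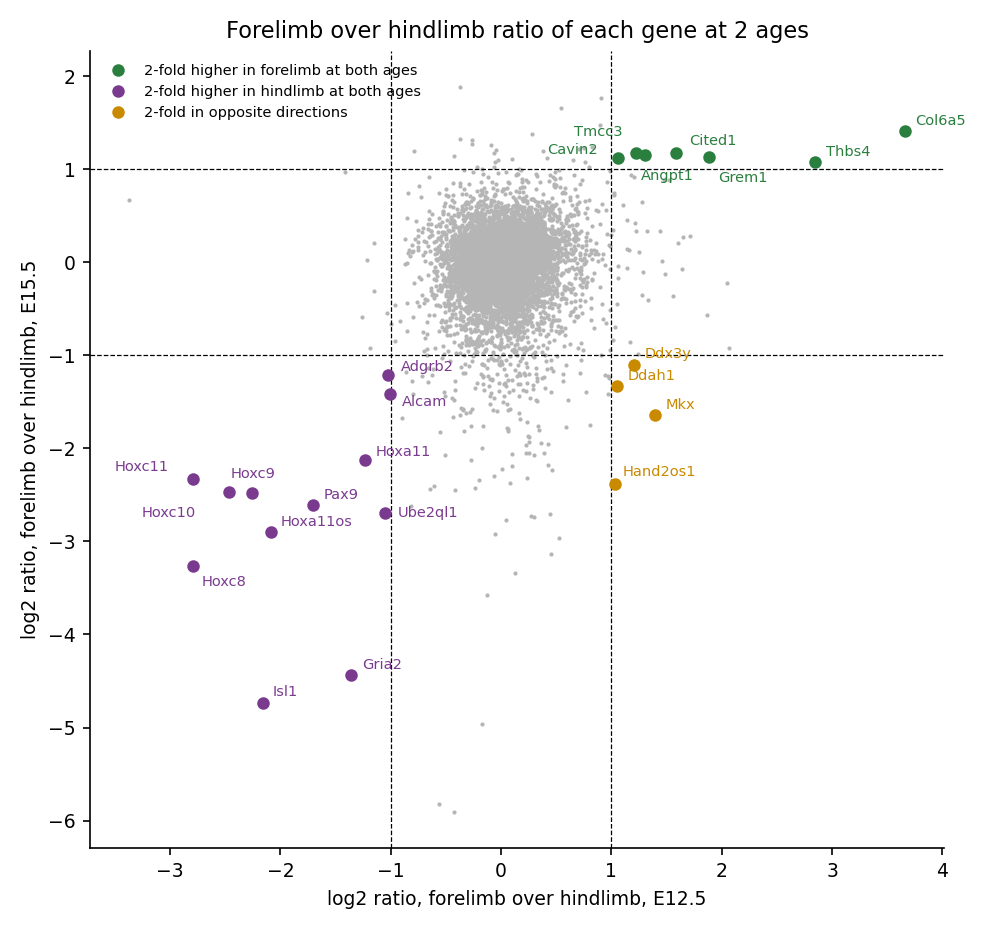
Log2 ratio of forelimb over hindlimb CPM at E12.5 (horizontal axis) and E15.5 (vertical axis) for the 9432 genes with at least 100 UMIs in both libraries, 1 point per gene, with dashed lines at 2-fold. Most genes lie near 0 at both ages, 12 genes lie past 2-fold toward the hindlimb at both (purple, lower left) and 7 toward the forelimb (green, upper right).

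The hindlimb genes common to both ages included 4 neighbours of the HoxC cluster, Hoxc8, Hoxc9, Hoxc10 and Hoxc11, on chromosome 15 (GRCm38). Hoxc10 (chr15:102966796-102971893), a homeodomain factor of the lumbar and hindlimb domain, had 1271 UMIs in hindlimb and 68 in forelimb cells at E12.5, or 116 CPM (109 to 122) and 20.9 CPM (16.3 to 26.5). At E15.5 it had 624 and 25 UMIs, or 44.0 CPM (40.7 to 47.6) and 7.96 CPM (5.15 to 11.8). The intervals of the sides did not overlap at either age, and the log2 ratios of forelimb over hindlimb were -2.46 (-2.84 to -2.11) and, at the later age, -2.47 (-3.11 to -1.89). Hoxc8 (chr15:102990607-102994111) had 51.2 CPM in hindlimb and 7.39 in forelimb cells at E12.5, and 15.2 and 1.59 at E15.5, with log2 ratios of -2.79 (-3.45 to -2.20) and -3.26 (-4.90 to -2.02). Hoxc9 (chr15:102976439-102985099) had log2 ratios of -2.26 (-2.75 to -1.80) and -2.48 (-3.55 to -1.57). Hoxc11 (chr15:102954427-102957708) had log2 ratios of -2.79 (-3.87 to -1.88) and -2.33 (-3.22 to -1.56), from 10 and 14 forelimb UMIs, and 1 cell held 35.7% of the 14.

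Hindlimb ratios past 2-fold ended between Hoxc8 and Hoxc6. Hoxc6, next to Hoxc8 on the anterior side, had 33.1 CPM in hindlimb and 25.9 in forelimb cells at E12.5, a log2 ratio of -0.36 (-0.72 to -0.01), and a ratio of 0.61 (0.13 to 1.06) at E15.5. Hoxc4 had -0.20 (-0.68 to 0.26) and 0.66 (-0.15 to 1.42), and Hoxc5 0.66 (0.14 to 1.16) and 1.54 (0.15 to 2.85), the E15.5 values from 77 and 23 UMIs. Hoxc5 (chr15:102967443-103017429) is annotated across Hoxc10, Hoxc9, Hoxc8 and Hoxc6, and the way reads in shared exons were counted is not given in the sources used here. With the sides at 1 cell make-up (described below), Hoxc6 was at -0.07 and -0.04, Hoxc4 at -0.08 and 0.78, and Hoxc5 at 0.74 at E12.5. Hoxc12 and Hoxc13 had at most 3 UMIs in any group. In mesenchyme cells without a side, Hoxc10 lay between the sides, at 62.5 CPM (58.0 to 67.3) and, in the older library, 24.6 CPM (22.2 to 27.2). Hoxc8 was there at 31.9 and 7.50 CPM. In cells with genes of both sides the 2 genes were near the hindlimb level, with Hoxc10 at 102 CPM (88.2 to 117) and 55.0 CPM (41.4 to 71.5). None of these values was used by the rule.

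**Figure D2:**
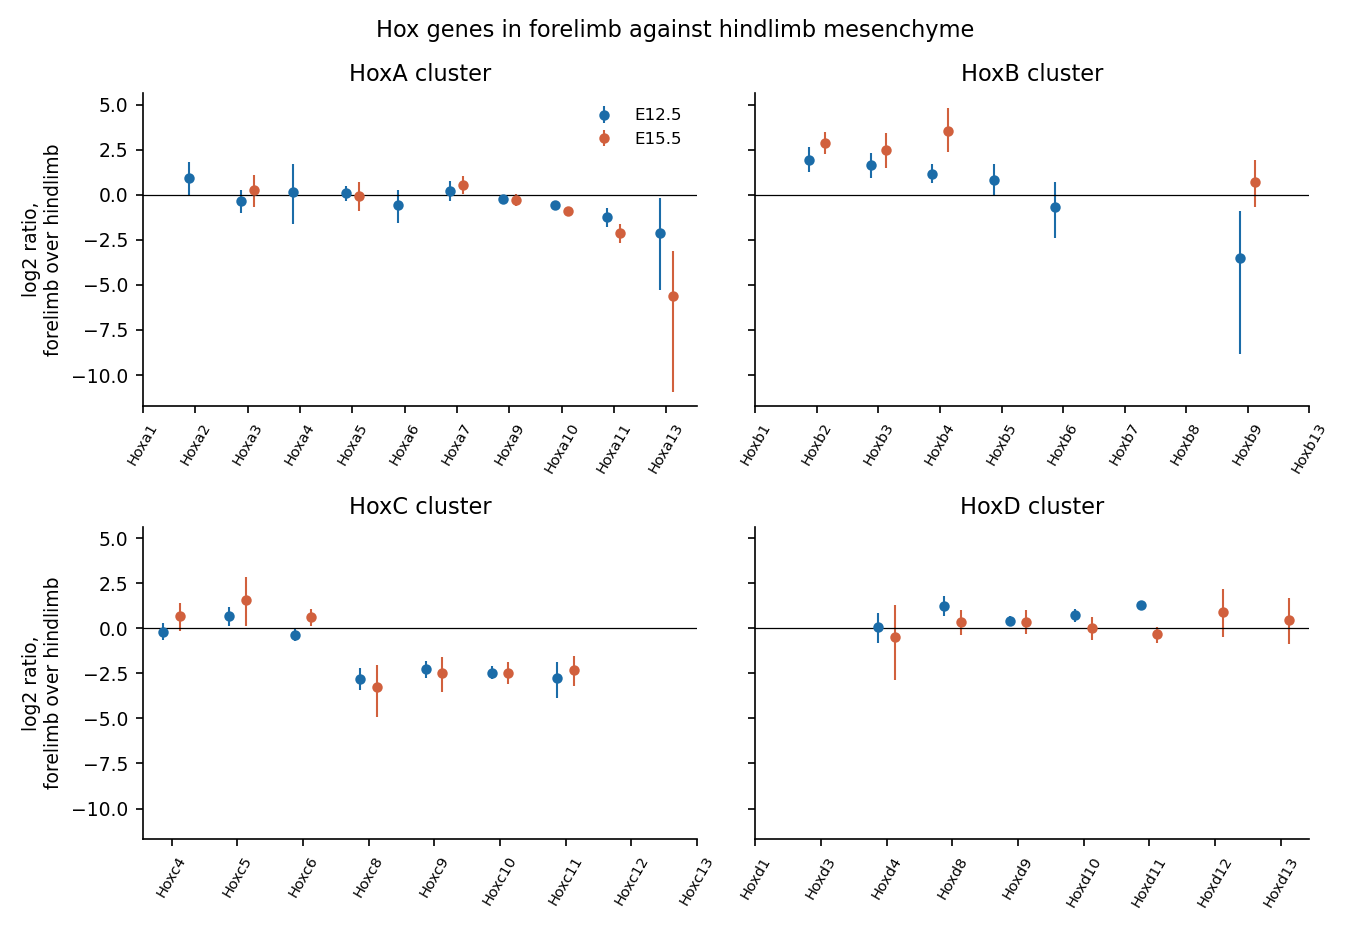
Log2 ratio of forelimb over hindlimb for the genes of the 4 Hox clusters in order along each cluster, at E12.5 (blue) and E15.5 (orange), for genes with at least 20 UMIs over both sides; bars are 95% counting intervals. Hoxc8 to Hoxc11 lie between -2.26 and -3.26 at both ages while Hoxc4, Hoxc5 and Hoxc6 lie near or above 0, and Hoxb2, Hoxb3 and Hoxb4 lie above 0.

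In the HoxA cluster the ratio moved toward the hindlimb from Hoxa9 to Hoxa11. In the order of age, Hoxa9 had log2 ratios of -0.26 (-0.51 to -0.02) and -0.28 (-0.63 to 0.05), and Hoxa10 -0.60 (-0.76 to -0.44) and -0.93 (-1.13 to -0.72). Hoxa11, which patterns the middle segment of the limb, had 25.3 CPM in hindlimb and 10.8 in forelimb cells at E12.5 and 43.1 and 9.87 at E15.5. Its log2 ratios were -1.23 (-1.78 to -0.72) and -2.13 (-2.70 to -1.60), in that order. The antisense transcript Hoxa11os had -2.09 (-2.78 to -1.47) and -2.90 (-3.64 to -2.25). Hoxa11 (chr6:52242106-52245810, minus strand) and Hoxa11os (chr6:52244393-52249799, plus strand) overlap, and whether strand was used in counting is not given, so the 2 values may share reads. Hoxa13, the gene of hand and foot, had 221 hindlimb UMIs in 169 cells and 1 forelimb UMI at E15.5, for a ratio of -5.61 (-10.92 to -3.12) on the log2 scale, and 30 and 2 UMIs at E12.5.

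The other clusters did not follow this order. In HoxD, 2 of the 4 genes measured at E12.5 were past 2-fold toward the forelimb, against 0.586% of all genes. Both came just inside 2-fold, at 0.98, with the sides at 1 cell make-up (described below). Hoxd11 had 76.4 CPM in forelimb and 31.5 in hindlimb cells there, a log2 ratio of 1.28 (1.04 to 1.52), against -0.35 (-0.81 to 0.09) at E15.5. Hoxd8 had 1.22 (0.67 to 1.77) and 0.34 (-0.40 to 1.02). The anterior HoxB genes were higher in the forelimb at both ages but few UMIs lie behind them. Hoxb4 had 51 forelimb and 77 hindlimb UMIs at E12.5 and 23 and 9 at E15.5, with log2 ratios of 1.17 (0.63 to 1.69) and 3.53 (2.36 to 4.82). Hoxb2 had 1.95 (1.27 to 2.63) and 2.86 (2.25 to 3.48), and Hoxb3 1.64 and 2.46, the latter from 40 UMIs. Only Hoxb4 at E12.5 reached 100 UMIs, and in male cells the median of the measured HoxB genes, which is 1 gene, was at -0.37.

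Outside the Hox clusters the hindlimb genes of both ages were Isl1, Pax9, Gria2, Ube2ql1, Adgrb2 and Alcam. Isl1, a LIM homeodomain factor that acts upstream of hindlimb initiation, had 212 hindlimb and 14 forelimb UMIs at E12.5, or 19.3 CPM (16.8 to 22.1) and 4.31 CPM (2.36 to 7.23). At E15.5 it had 120 UMIs in 80 hindlimb cells and 1 UMI in the forelimb, with a log2 ratio of -4.73 (-10.05 to -2.23), after -2.16 (-3.06 to -1.38) at E12.5. Isl1 was as high in cells without a side, at 23.2 CPM (20.5 to 26.2) at E12.5. Pax9, a paired-box factor of the anterior limb, had log2 ratios of -1.70 (-2.46 to -1.02) and -2.61 (-4.07 to -1.46). Gria2, a glutamate receptor subunit, had 44.2 CPM in hindlimb and 17.2 in forelimb cells at E12.5 and 13.8 and 0.637 at E15.5, but 77.4 CPM in cells without a side at E12.5. Ube2ql1, Adgrb2 and the cell adhesion gene Alcam were close to the threshold at E12.5, at -1.05 (-1.90 to -0.29), -1.02 (-1.83 to -0.30) and -1.01 (-1.16 to -0.86), and at -2.69, -1.21 and -1.41 at E15.5.

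The 7 forelimb genes of both ages were Col6a5, Thbs4, Grem1, Cited1, Angpt1, Tmcc3 and Cavin2. Col6a5, a chain of type VI collagen, had 34.5 CPM (28.4 to 41.5) in forelimb and 2.73 CPM (1.84 to 3.89) in hindlimb cells at E12.5. At E15.5 it had 25.2 CPM (19.9 to 31.4) and 9.46 CPM (7.93 to 11.2), and the log2 ratios were 3.66 (3.07 to 4.29) and 1.41 (0.99 to 1.82). Thbs4, a thrombospondin of tendon matrix, had 31.4 CPM in forelimb and 4.36 in hindlimb cells at E12.5, and 111 and 52.8 at E15.5, with log2 ratios of 2.85 (2.34 to 3.37) and 1.08 (0.89 to 1.26). Grem1, a secreted BMP antagonist of the limb bud, had 93.6 and 25.3 CPM at E12.5 and 33.4 and 15.3 CPM at E15.5, with log2 ratios of 1.89 (1.65 to 2.13) and 1.13 (0.78 to 1.47). The vessel ligand Angpt1 had 1.31 (1.00 to 1.61) and 1.16 (0.76 to 1.55), the transcriptional cofactor Cited1 1.59 and 1.17, Tmcc3 1.22 and 1.18, and Cavin2, a coat protein of caveolae, 1.06 and 1.12. Phex, a membrane endopeptidase gene, was also higher in the forelimb at both ages, at 1.76 (1.11 to 2.41) and 1.84 (1.54 to 2.14), but had 84 UMIs at E12.5.

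**Figure D3:**
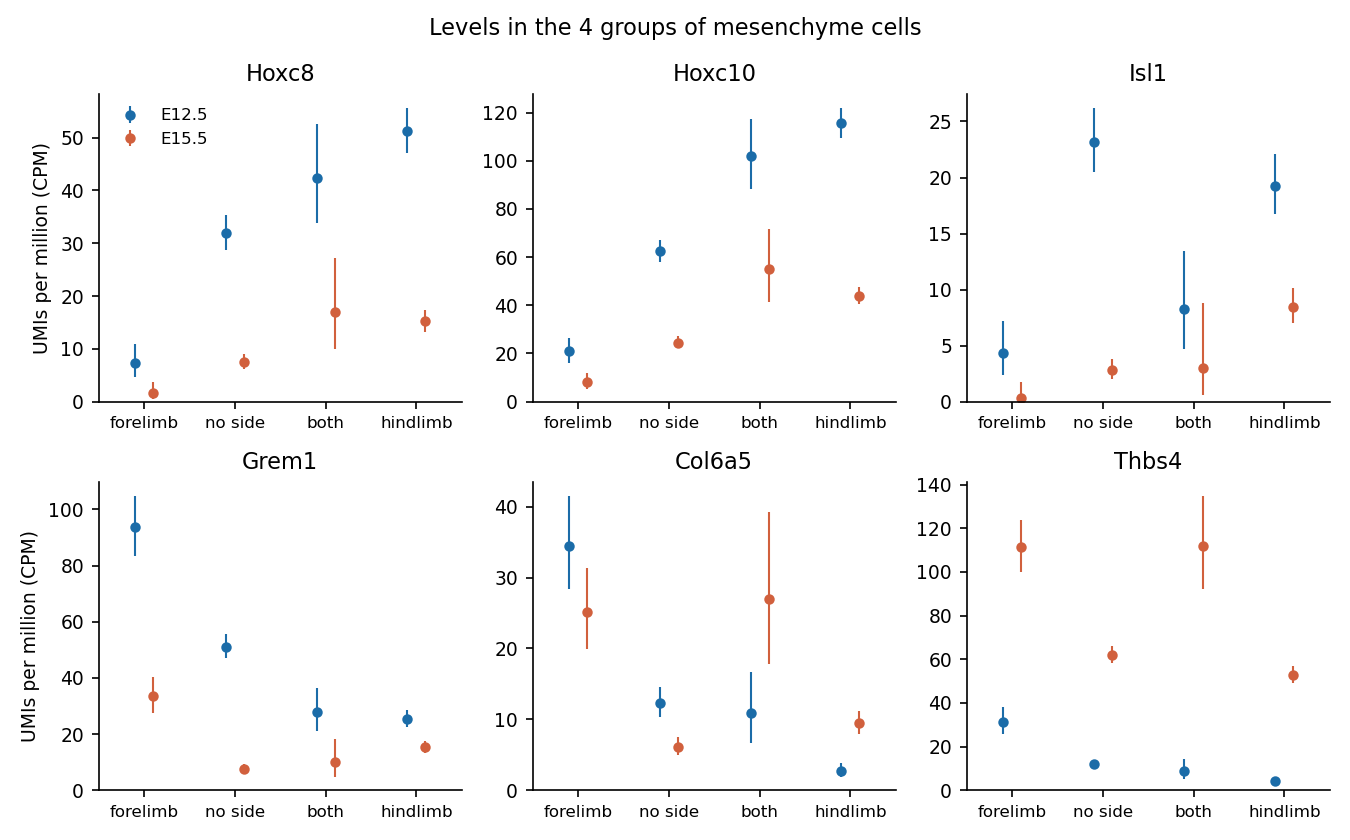
CPM in forelimb cells, cells with no side, cells with genes of both sides and hindlimb cells at E12.5 (blue) and E15.5 (orange), for 3 hindlimb and 3 forelimb genes; bars are exact 95% Poisson intervals. Hoxc8 and Hoxc10 are lowest in forelimb cells and intermediate in cells with no side, while Isl1 at E12.5 is as high with no side (23.2) as in the hindlimb (19.3).

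The clusters of mesenchyme cells held the 2 sides in unequal shares. Clusters were made without the side genes, the Hox genes and the genes named above as common to both ages. Of the sided cells of an E12.5 cluster led by Dcc and Vwc2, 83.9% (77.6 to 89.0) were forelimb cells. Tbx5 was also among the leading genes of this cluster, so that this share is not separate from the rule. In a cluster led by Aldh1a2 and Postn the share was 3.57% (1.97 to 5.92). At E15.5, 91 of the 254 forelimb and 78 of the 1445 hindlimb cells lay in a cluster led by Dpt and Clec3b. A further 3 and 282 lay in a cluster led by Mecom, Cpm and Mia besides the globins Hba-x and Hbb-y. Of the E15.5 hindlimb UMIs of these globins, 99.3% and 97.7% were in 1 barcode each. Cluster genes that differ between the sides enter these shares, which are a description. To compare the sides at a single cell make-up, the hindlimb clusters were given the forelimb weights, a choice made after seeing the data. Past 2-fold on the same side at both ages then stayed 8 of the 12 hindlimb genes. These were Hoxc8, Hoxc9, Hoxc10, Hoxc11, Hoxa11, Hoxa11os, Isl1 and Gria2. Of the 7 forelimb genes 2 stayed, Col6a5 and Grem1. For Grem1 at E15.5, 20 of the 105 forelimb UMIs came from 1 barcode. Over the 17 alternatives described below, Grem1 was past 2-fold in all 17 at E12.5 but in 12 at E15.5.

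At equal make-up the log2 ratios of Hoxc10 were -2.32 and -2.76, those of Hoxc8 -2.61 and -3.27, those of Col6a5 2.98 and 1.03, and those of Grem1 1.63 and 1.57. Thbs4 had 2.14 and 0.59, Cavin2 0.82 and 0.51, Tmcc3 0.47 and 0.57, Cited1 0.89 and 0.77, Angpt1 0.99 and 2.04, and Pax9 -1.27 and -0.94. Within single clusters, Hoxc10 was higher in the hindlimb in 14 of 14 clusters at E12.5, with log2 ratios from -4.77 to -0.66, and in 3 of 3 at E15.5, from -3.93 to -2.40. Hoxc8 was higher in the hindlimb in 9 of 9 and 2 of 2 clusters. Grem1 was higher in the forelimb in 6 of 7 and 3 of 3 clusters, and Col6a5 in 3 of 3 at each age. The direction was mixed for others at E12.5, where Gria2 was higher in the forelimb in 2 of 5 clusters, Alcam in 3 of 14, Pax9 in 1 of 4 and Hoxc9 in 1 of 10, and Tmcc3 in 1 of 2. These counts use clusters with at least 30 cells of each side and 20 UMIs of the gene.

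**Figure D4:**
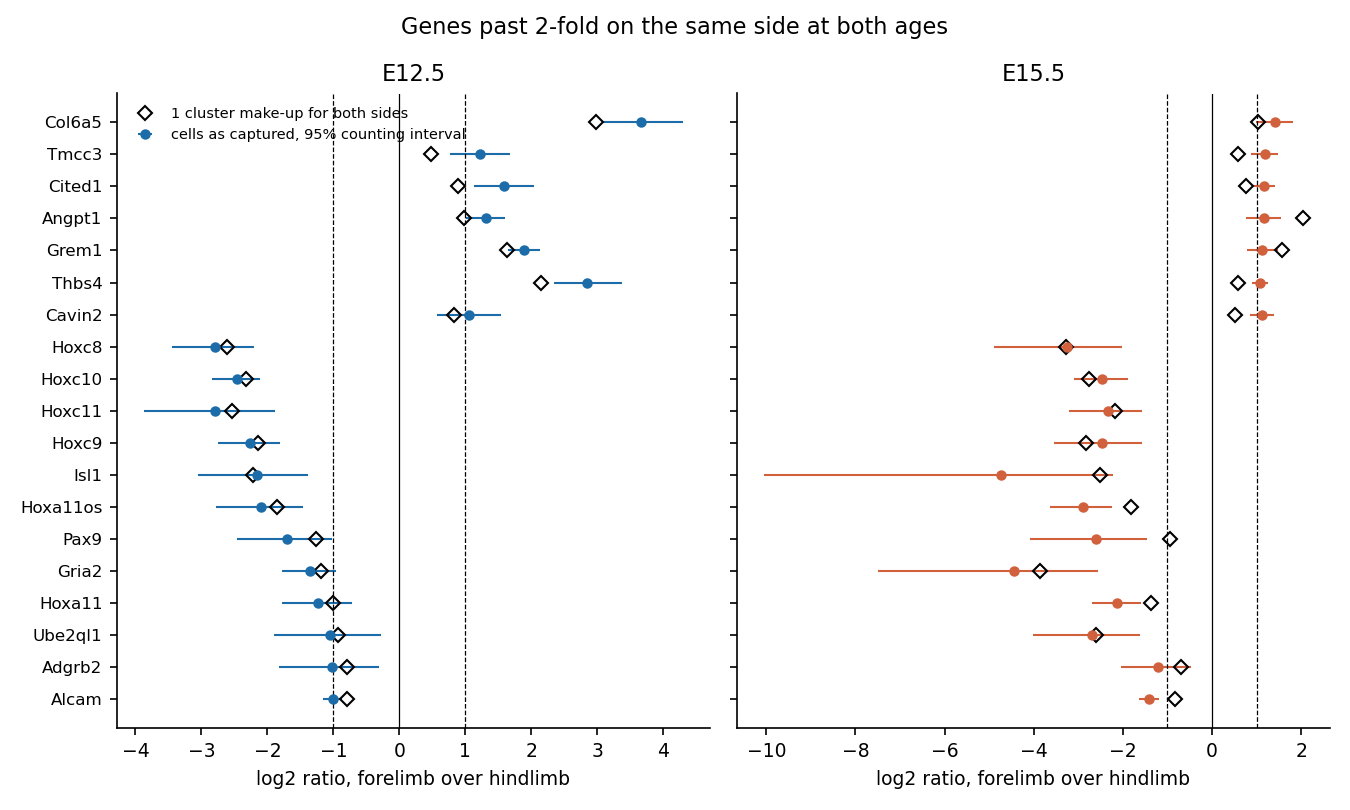
Log2 ratio of forelimb over hindlimb for the 19 genes past 2-fold on the same side at both ages, at E12.5 (left) and E15.5 (right), with cells as captured (filled circles, bars are 95% counting intervals) and with both sides at 1 cluster make-up (open diamonds); the 2 horizontal axes differ and dashed lines mark 2-fold. The 4 HoxC genes stay past 2-fold under both, while Tmcc3 and Cavin2 come inside 2-fold at both ages.

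The ratios were also taken within each sex and with stricter side calls. In female cells, 10 of the 12 hindlimb genes were measured at both ages and 7 stayed past 2-fold, with Hoxc10 at -2.25 and -2.91 and Hoxc9 at -1.71 and -2.62. In male cells Hoxc10 was at -3.31 and -2.20. Isl1 at E15.5 was at -4.47 in female cells. Among male cells, of which only 25 were forelimb cells at E15.5, it had 0 forelimb and 25 hindlimb UMIs, and Hoxc8 had 0 and 44, too few for a fold. Hoxa11 was at -1.85 and -2.44 in female cells, and at 0.31 and -0.49 in male cells, each male value from 11 forelimb UMIs. Gria2 at E12.5 was at -0.41 in female and -3.98 in male cells, and Grem1 at E15.5 at 1.27 and -0.37. With a side called from at least 2 UMIs, which left 375 forelimb and 1875 hindlimb cells at E12.5 and 73 and 906 at E15.5, Hoxc10 was at -3.55 at both ages, Col6a5 at 3.74 and 1.27, and Grem1 at 1.30 and 0.97. Isl1 was then at -1.41 at E12.5, and at E15.5 it had 0 forelimb and 69 hindlimb UMIs, a log2 ratio at or below -1.31 with 3 UMIs as the floor. All 9 of the hindlimb genes that could be measured then stayed past 2-fold, and 1 of 2 forelimb genes.

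Of the genes common to both ages with a promoter to search, Isl1 and Thbs4 were the 2 that held a motif of the side factors. Their promoters are printed for that reason. The motifs searched on both strands were TAATCC, the core bound by Pitx factors, and GGTGTG, the core of the T-box site. RefSeq promoters (GRCm38.p6), from 250 bases before to 50 after the gene start, were found for 8 of the 12 hindlimb and 6 of the 7 forelimb genes. Those of Hoxc8, Hoxc9, Hoxc10, Hoxc11 and Angpt1 were not found and not searched. TAATCC was in 1 of the 8 and none of the 6, and in 1935 of 27025 mouse promoters (7.16%). GGTGTG was in none of the 8 and 1 of the 6, and in 5124 promoters (18.96%). A match is a string of letters and not a shown binding site. The Isl1 promoter (chr13:116309639-116309938, minus strand) has TAATCC starting 177 bases before the start, and the Thbs4 promoter (chr13:92794769-92795068, minus strand) has the reverse complement of GGTGTG starting 176 bases before it. Both are written 5′ to 3′ on the gene's strand, with the match in capitals.
Isl1 promoter: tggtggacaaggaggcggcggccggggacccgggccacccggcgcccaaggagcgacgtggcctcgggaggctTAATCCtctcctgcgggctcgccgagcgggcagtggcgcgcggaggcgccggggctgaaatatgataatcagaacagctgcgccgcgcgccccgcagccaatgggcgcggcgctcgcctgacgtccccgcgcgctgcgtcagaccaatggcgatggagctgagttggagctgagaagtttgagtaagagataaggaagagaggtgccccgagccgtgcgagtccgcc
Thbs4 promoter: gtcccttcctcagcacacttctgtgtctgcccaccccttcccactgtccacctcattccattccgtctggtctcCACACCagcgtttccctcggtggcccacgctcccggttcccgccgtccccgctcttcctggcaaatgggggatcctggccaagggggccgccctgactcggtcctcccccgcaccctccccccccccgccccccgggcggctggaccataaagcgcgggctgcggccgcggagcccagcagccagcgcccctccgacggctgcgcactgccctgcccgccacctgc

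Near the side genes themselves, 4 genes within 500 kb of Tbx5 were measured at E12.5. Of these, 3 were past 2-fold toward the forelimb, against 0.586% of all genes. At E15.5 it was 0 of 3 measured, against 0.974%. Forelimb cells were chosen by a Tbx5 UMI, so that values of genes expressed together with Tbx5 are not separate from the rule. The window of 500 kb was chosen after 1700021F13Rik had been seen among the most forelimb-biased genes. This noncoding RNA (chr5:119805329-119807869) lies 24.8 kb from Tbx5 on the opposite strand and had 83 forelimb and 18 hindlimb UMIs at E12.5, a log2 ratio of 3.96 (3.22 to 4.79). At E15.5 it had 24 and 6 UMIs, or 4.17 (2.85 to 5.75). Tbx3, a T-box gene 148 kb from Tbx5, had 153 CPM in forelimb and 63.5 in hindlimb cells at E12.5, a log2 ratio of 1.27 (1.10 to 1.44), and 0.65 (0.37 to 0.92) at E15.5. Its antisense neighbour Tbx3os1 had 1.29 (0.93 to 1.65) and -0.10 (-0.56 to 0.33). The other gene measured within 500 kb of Tbx5, Rbm19, was at -0.04 and -0.43. Around Tbx4 and Pitx1, 0 of 6 and 0 of 18 measured genes were past 2-fold at either age, where 0.933% and 3.59% of all genes were.

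Other limb patterning genes were counted by list. The list of limb initiation and related T-box or Pitx genes had 14 genes measured at E12.5. Of these, 1 was past 2-fold toward the forelimb (Tbx3) and 1 toward the hindlimb (Isl1), against 0.586% and 0.347% of all genes. The list median was 0.01, against -0.003 for all genes. At E15.5, 1 of 12 was past 2-fold toward the forelimb and 2 toward the hindlimb, against 0.974% and 2.62% of all genes. The list median there was -0.06. Hand2, a factor of the posterior limb, was at 0.71 (0.50 to 0.92) at E12.5 but -1.19 (-1.53 to -0.87) at E15.5, and at equal cell make-up at 0.32 and -0.35. Tbx18 was at -0.22 (-0.36 to -0.09) and 1.02 (0.79 to 1.25), and at equal make-up at 0.03 and 0.80. Emx2, a homeodomain factor of the shoulder girdle, was higher in the forelimb at 0.82 (0.62 to 1.02) and 1.24 (0.96 to 1.52), and at equal make-up at 0.66 and 0.39. Alx1 was at 1.53 (0.96 to 2.09) and 3.87 (3.04 to 4.78), the latter from 52 forelimb and 16 hindlimb UMIs. In the list of 13 retinoic acid genes, 1 of 10 measured was past 2-fold at E12.5, the retinol transporter Stra6 at -1.73 (-2.45 to -1.08). At E15.5 it was 0 of 10, with a median of -0.44. Of all genes, 0.933% and 3.59% were past 2-fold in either direction at the 2 ages.

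Tendon genes differed at E12.5 and cartilage genes at E15.5. Of 9 tendon genes measured at E12.5, 5 were past 2-fold toward the forelimb, where 0.586% of all genes were (Thbs4, Fmod at 1.86, Mkx at 1.40, Tnc at 1.17 and Col12a1 at 1.14) and the median was 1.14. The tendon factor Scx was at 0.56 (0.37 to 0.75). At E15.5 1 of 11 was past 2-fold toward the forelimb and 2 toward the hindlimb, Mkx and Scx, with a median of 0.15. At equal cell make-up the E12.5 median was 0.59, and of the 5 called genes Thbs4 stayed past 2-fold while Fmod was at 0.59, Mkx at 0.80, Tnc at 0.87 and Col12a1 at 0.59. Cartilage genes at E12.5 had a median of 0.30, and 16 of 17 were above 0. At E15.5 all 18 that were measured were past 2-fold toward the hindlimb, as were 2.62% of all genes, with a median of -1.94. Col2a1, the main collagen of cartilage, had 317 CPM in hindlimb and 93.6 in forelimb cells at E15.5, and its log2 ratio was -1.76 (-1.93 to -1.59). Sox9, the factor that sets up cartilage, was at -1.29 (-1.49 to -1.10). Cells with at least 2000 UMIs were thinned to 2000, which kept 801 of 1190 forelimb and 2763 of 3561 hindlimb cells at E12.5. Of the thinned cells, 10.2% (8.67 to 11.9) of hindlimb and 3.95% (1.91 to 7.15) of forelimb cells had cartilage transcripts at E15.5, defined as 2 UMIs of Col2a1 or 1 of Acan, against 35.0% and 37.7% at E12.5. Unthinned, these shares were 21.0% and 7.09%, and 41.8% and 46.2%. At equal cell make-up the E15.5 cartilage median was -0.08, a value that rests on few forelimb cells, since the cartilage gene clusters led by Matn1 and by Nusap1 and Col9a3 held 2 forelimb cells each. Within the clusters with 30 cells of each side, Col2a1 was higher in the hindlimb in 2 of 2, at -2.82 and -1.80, and Sox9 in 2 of 3.

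**Figure D5:**
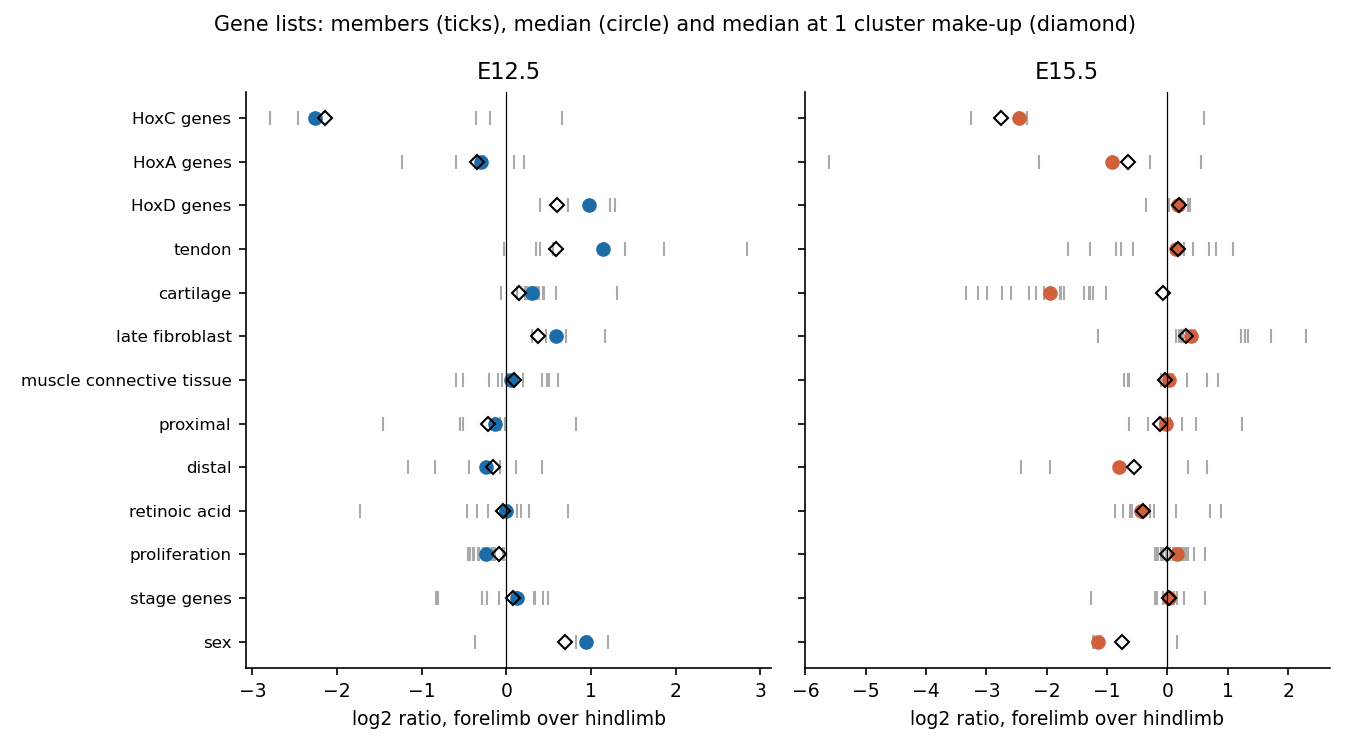
Log2 ratio of forelimb over hindlimb for 13 gene lists at E12.5 (left) and E15.5 (right); grey ticks are list members with at least 100 UMIs, filled circles their median and open diamonds the median with both sides at 1 cluster make-up. The HoxC medians lie at -2.26 and -2.47, and at -2.14 and -2.76 at 1 make-up, while the cartilage median at E15.5 moves from -1.94 to -0.08.

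The forelimb genes of E15.5 included several of late fibroblasts, the matrix-producing cells of fascia and skin. Clec3b, which encodes tetranectin, had 216 CPM (200 to 233) in forelimb and 44.0 CPM (40.7 to 47.6) in hindlimb cells, a log2 ratio of 2.29 (2.13 to 2.45). Dpt, or dermatopontin, was at 1.71 (1.61 to 1.82), and Tnxb, a tenascin, at 2.01 (1.80 to 2.23). Of 12 late fibroblast genes, 5 were past 2-fold toward the forelimb and 1, Ecrg4 at -1.16, toward the hindlimb, against 0.974% and 2.62% of all genes, with a median of 0.38. At equal make-up Clec3b was at 1.01, Dpt at 0.79, Tnxb at 0.92 and Ecrg4 at 0.27. The 25 proliferation genes lay below 0 at E12.5 without exception, with a median of -0.24 and none past 2-fold, and 17 of 25 lay above 0 at E15.5. At equal make-up the proliferation median at E12.5 was -0.09, with 8 of 25 above 0. Hmga2, a chromatin protein of early embryonic cells, was higher in the hindlimb at both ages, at -0.81 (-0.87 to -0.75) and -1.27 (-1.53 to -1.02).

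Genes that change with age were compared between the sides, with the age ratio taken from the cells without a side, which enter no side ratio. The 100 genes that were highest at E15.5 relative to E12.5 had a median side ratio of 0.43 at E12.5, with 75 above 0, and of 0.36 at E15.5, with 76 above 0. The 100 genes that were lowest at E15.5 had a median of 0.07 at E12.5. Their median at E15.5 was -0.85, and 86 lay below 0 and 43 were past 2-fold toward the hindlimb, as were 204 of all 9428. The median of all 9428 genes was -0.003, and -0.004 in the E15.5 library. Genes of the first set include Dcn, Postn and Col14a1, and genes of the second Runx2, Gdf5 and Hmga2. At equal cell make-up the medians of the first set were 0.28 and 0.16, and that of the second at E15.5 was -0.17.

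Several of the most hindlimb-biased genes of E15.5 come from few cells. The embryonic globins Hba-x and Hbb-y had log2 ratios of -5.90 and -5.82, with 99.3% and 97.7% of the hindlimb UMIs in 1 barcode each, and Cstdc5 had -5.73, with 98.3% in 1 barcode. The adhesion receptor gene Cxadr, at -4.97 (-10.28 to -2.46), and the noncoding RNA Rmst, at -4.59 (-7.65 to -2.72), were seen in 117 and 126 hindlimb cells. Among the hindlimb genes of E12.5, Calb2, a calcium-binding protein gene, had 417 and 19 UMIs, or -2.70 (-3.44 to -2.03), and 14 and 2 UMIs at E15.5. The pseudogene Olfr1369-ps1 was at -3.37 (-5.27 to -1.98) at E12.5. At E15.5 it was at 0.66 (0.39 to 0.93) with 67.1% of its forelimb UMIs in 1 barcode, and at -0.54 without the highest barcode of each side. Among the forelimb genes of E12.5, Six2 was at 2.07, Dcc, a netrin receptor, at 2.05 and Ccser1 at 1.85, and they were at -0.92, -0.22 and 0.72 at E15.5. At equal make-up Six2 was at 0.59 and 1.26 and Dcc at 1.38 and 0.38, so that the sign at E15.5 changed for both. These E15.5 values rest on 19 and 16 forelimb UMIs. The interval of Dcc with cells as captured, -1.09 to 0.56, included 0 there. The forelimb genes of E15.5 also included 5330417C22Rik at 2.25, Ly6c1 at 2.08, Entpd2 at 1.98, Gap43 at 1.88 and Dpp4 at 1.88, and at equal make-up Ly6c1 was at 0.79 and Dpp4 at 0.66. Of these, Gap43 was at -0.37 (-0.63 to -0.12) at E12.5, and the others had at most 9 UMIs there.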

How the data were processed

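Droplet libraries of RNA 3′ ends were made by the submitters with a 10x Genomics kit. The deposited values are raw UMI counts for each gene in each barcode, and the file headers name Cell Ranger 4.0.0. Build mm10 and Seurat 4.3.0 stand in the submitters' processing notes, with no role given. No cell annotation was used here. The deposited totals were 34907675 UMIs in 12941 barcodes at E12.5 and 46966083 in 5780 at E15.5, and 12271 and 4106 barcodes passed the gene and mitochondrial limits. The mesenchyme gate kept 9798 and 3346.

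For each side of a library the UMIs of all cells were added, scaled to CPM and compared as log2 ratios of forelimb over hindlimb, with exact Poisson, conditional and binomial (Clopper-Pearson) 95% intervals. A gene was measured with at least 100 UMIs over both sides and called at 2-fold. A count of 0 was set to a floor of 3 counts per group. Doublets were not removed, and an alternative removed the highest simulated-doublet scores. Clusters (Leiden, resolution 1.0, 30 components) left out the side, Hox, sex, globin and agreeing genes. Named genes were those called on the same side at both ages, the 8 most extreme per side and age, those called in opposite directions, and members of 27 lists. The members and lists were chosen with earlier results of these data known. Positions came from GENCODE vM21, where 32158 of 32285 identifiers were found. The calculation of ratios and intervals was checked on simulated Poisson counts. These do not hold the concentration of UMIs in single barcodes seen in the data, which the check therefore does not cover. Python 3.11.15, numpy 2.4.6, scipy 1.17.1, igraph 0.11.9 and leidenalg 0.10.2 were used.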

Additional observations from a re-analysis of the deposited data

Results flagged for a closer look

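Genes past 2-fold in opposite directions at the 2 ages numbered 4 of 9432 (0.0424%), and the differences between the ages were not tested. The tendon factor gene Mkx had a log2 ratio of forelimb over hindlimb of 1.40 (1.03 to 1.76) on 112 and 144 UMIs at E12.5. At E15.5 it was at -1.65 (-2.45 to -0.94) on 17 and 240 UMIs. Ddah1, which encodes an enzyme that breaks down methylated arginine, was at 1.05 (0.82 to 1.27) and -1.33 (-1.71 to -0.97). Hand2os1, the noncoding neighbour of Hand2, was at 1.03 (0.73 to 1.33) and -2.38 (-2.97 to -1.85). The Y-linked gene Ddx3y, which is among the genes behind the sex call, was at 1.20 (0.90 to 1.51) and -1.10 (-1.59 to -0.65). Of cells with a sex call, 31.2% of forelimb and 13.1% of hindlimb cells were male at E12.5, against 10.5% and 23.6% at E15.5. With both sides at 1 cluster make-up, Mkx was at 0.80 and -0.64, Ddah1 at 0.77 and -1.03, and Hand2os1 at 0.16 and -1.43.

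Side genes also appeared in barcodes with the endothelial gene Cdh5, which the rule places on neither side. After thinning to 2000 UMIs, 3.30% of 212 such barcodes had a Tbx5 UMI, 4.72% a Tbx4 UMI and 13.7% a Pitx1 UMI at E12.5, and 4.26% of 188 had a Pitx1 UMI at E15.5.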

How the results depend on the processing

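No paired analysis was possible because the labels give no replicate numbers and each age is 1 library. Over 17 alternatives, 1020 of 1170 values of called named genes moved by less than their counting interval, 145 moved further and 5 changed sign, all 5 in male cells: Hoxa11 at E12.5 (0.31) and, at E15.5, Cxadr (0.16), Grem1 (-0.37), Isl1 (0.21) and Thbs4 (-0.21). Isl1 and Cxadr had 0 forelimb UMIs there, set to the floor of 3, so that their values are upper limits and not a change of direction, and Grem1 had 4. The medians of HoxB genes at E12.5 (-0.37) and bone genes at E15.5 (0.16), of 1 gene each and the latter again at the floor, also changed sign in male cells, of which 25 were forelimb cells at E15.5. Hoxc9, Hoxc10, Hoxc11 and Col6a5 stayed past 2-fold at both ages in all 17. The alternatives that alter only the gene minimum leave each ratio as it was, and centring on the median gene hardly shifts it. Each of these kept 71 of 71 values, an outcome fixed in advance, and they are among the 1020.

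The numbers of called genes depended on the settings. In the order forelimb and hindlimb at E12.5, forelimb and hindlimb at E15.5, forelimb at both and hindlimb at both, they were 59, 35, 99, 266, 7 and 12. With a minimum of 50 UMIs they were 120, 82, 162, 459, 14 and 19, with 200 UMIs 33, 20, 56, 146, 2 and 7, and with no minimum 731, 622, 690, 989, 78 and 74. Genes measured numbered 10075 at E12.5 and 10161 at E15.5. They were 11646 and 11688 with 50 UMIs, 8167 and 8222 with 200, and 16010 and 15204 with no minimum. The numbers of calls changed by a larger factor than the genes measured. Hindlimb calls at E12.5 were 67 with sides from 2 UMIs, 22 with the hindlimb from Pitx1 alone and 13 from Tbx4 alone, which also gave 157 hindlimb genes at E15.5, 4 forelimb genes at both ages and 5 hindlimb genes at both. Male cells gave 14 forelimb and 9 hindlimb genes at E12.5, and 0 and 3 at both ages. Only 3611 genes were measured in them at E12.5 and 3364 at both ages, against 10075 and 9432 in the main setting. Of the 7 forelimb and 12 hindlimb genes of both ages, 0 and 2 could be measured there, and the 2 stayed past 2-fold. Sides matched on UMIs per cell gave 13 hindlimb genes at E12.5, 58 forelimb and 86 hindlimb genes at E15.5, and 4 and 3 at both ages. Genes measured at E12.5 numbered 8095 with Tbx4 alone and 7908 with matched sides. With Tbx4 alone, 6 of the 7 forelimb and 4 of the 12 hindlimb genes of both ages could be measured, and with matched sides 5 and 4. Without cartilage and tendon cells 172 hindlimb genes were called at E15.5. At 1 cluster make-up, an alternative chosen after seeing the data, forelimb genes numbered 34 at E12.5, 52 at E15.5 and 3 at both ages, and hindlimb genes 103 at E15.5. For these the cause was not tested. The other alternatives, among them doublet removal (1270 and 190 barcodes) and leaving out each gene's highest barcode, also chosen after seeing the data, kept every count within 1.5 times. Depth limits genes with few UMIs on the smaller side, above all in the 254 forelimb cells at E15.5.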

Other observations

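Globin transcripts, which are made by red blood cells, rested on few barcodes in the forelimb cells. Hbb-bs had 103 CPM in forelimb and 37.1 in hindlimb cells at E12.5, a log2 ratio of 1.48 (1.26 to 1.69), with 73.1% of its 335 forelimb UMIs in 1 barcode. With both sides at 1 cluster make-up, which leaves out a small cluster led by globins, 35 forelimb UMIs remained and the ratio was -0.16. At E15.5 it was at 0.89 (0.84 to 0.94), with 48.6% of the forelimb UMIs in 1 barcode, and at 0.41 at equal make-up. Hbb-bt was at 0.32 and 0.95, and at equal make-up at -0.67 and 0.32. The embryonic globin Hbb-y at E12.5 was at -0.56 (-0.65 to -0.47), with 56.0% of its forelimb UMIs in 1 barcode.

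A cluster of 686 mesenchyme cells at E12.5, with Gria2, Isl1 and Hoxb4 among its leading genes, had 169 cells with a side, 31 from the forelimb and 138 from the hindlimb. Among its cells with a sex call, 235 were male and 91 female. Male and female cells of that library numbered 831 and 2034 with no side, 259 and 571 in the forelimb and 350 and 2318 in the hindlimb. Isl1 and Gria2 were left out of the genes that made the clusters.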
